A study of Mus musculus with 6 samples.

Results

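The genes considered here take up fatty acids, bind and activate them, oxidise, synthesise or desaturate them, and store and release them as lipid droplets. They were chosen by name among the protein-coding rows (the acyl-CoA synthetase, dehydrogenase, oxidase and thioesterase families, carnitine palmitoyltransferases, fatty acid binding proteins, thiolases and isomerases, electron transfer flavoproteins, acetyl-CoA carboxylases, Fasn, stearoyl-CoA desaturases, Cd36, Lpl, Angptl4, perilipins and patatin-like lipases), a rule that reads gene names and no measured value. This gave 51 of 8969 protein-coding genes, measured by RNA-seq of poly(A) RNA in isolated hearts of male mice. The 3 I/R hearts (ischaemia and reperfusion) were arrested for 30 min with a cardioplegic solution (written Tomas cardioplegia in the labels) and then reperfused for 1 h, and the 3 Sham hearts were not arrested. Hearts of both groups were isolated and kept on Langendorff perfusion, in which fluid is driven into the coronary vessels, so neither group had the circulation of the animal. The labels give no strain or age, and they call the hearts biological replicates. The comparison asks which mRNAs differ after arrest and reperfusion.

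The heart takes most of its energy from long-chain fatty acids. Lipoprotein lipase (Lpl) frees them from circulating triglyceride, Cd36 carries them across membranes, binding proteins such as Fabp3 hold them in the cytosol, and acyl-CoA synthetases activate them to acyl-CoA. Carnitine palmitoyltransferase brings acyl-CoA into mitochondria, where dehydrogenases, hydratases and thiolases shorten it, and electron transfer flavoprotein passes the electrons to the respiratory chain. Malonyl-CoA from acetyl-CoA carboxylase inhibits the carnitine step. Oxygen is the final electron acceptor, so oxidation is limited in ischaemia and can resume at reperfusion.

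Levels are FPKM, fragments scaled by transcript length and by the library's total, summed over a gene's transcripts. Values per heart are given in the order of replicates 1, 2 and 3, group values are means ± SD with n = 3 hearts, and differences, always I/R minus Sham, are on the log2(FPKM + 1) scale ± SE, which understates differences of genes near 1 FPKM. Protein-coding FPKM rested on totals of 7690040 to 8896834 reads in I/R and 7233171 to 9902397 in Sham hearts, of which the listed transcripts held 38.1% to 39.9% in I/R and 36.8% to 38.3% in Sham. RefSeq has 85 protein-coding genes whose names match the rule. The other 34 had no protein-coding row under their names and so could not be analysed. Among them are Cpt1a, Cpt2, Acadvl, Acads, Echs1, Etfb, Etfdh, Scd1 and Acaca. What share of each gene's reads fell on its listed transcripts is not known. In RNA of whole hearts, fewer cells of a type and less RNA per cell cannot be told apart.

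Listed mRNA levels of the abundant enzymes of mitochondrial oxidation differed between I/R and Sham hearts by less than the spread between hearts, and the few members whose groups stood apart averaged below 20 FPKM over all hearts. Of the 51 genes, 34 had a mean of at least 0.5 FPKM and were tested. None had an adjusted p under 0.05 in limma, adjusted over 12114 genes, where 0 of all genes did (0%; 1023, or 8.44%, at an unadjusted p under 0.05) and the smallest adjusted p of a member was 0.528. At an unadjusted p under 0.05, 3 members were higher in I/R (Acsl1, Acot7 and Pnpla2) and 0 were lower, which is 8.82% of the 34 beside 5.1% of the 5041 protein-coding genes tested (3.43% higher and 1.67% lower). With 34 genes this difference in share is 1 or 2 genes. The count of 3 was 1 without I/R replicate 2, without I/R replicate 3 or without Sham replicate 1, 2 without Sham replicate 3, 0 without Sham replicate 2, 1 with a filter at 5 FPKM, and 4 with class medians set equal or with protein-coding genes fitted alone. By limma voom on the reads recovered from the FPKM, 4 members were higher and 1 lower at an unadjusted p under 0.05, beside 8.57% of protein-coding genes in that fit (6.11% higher and 2.46% lower), and 0 of 12113 genes passed the adjustment. The median difference of the 34 genes was 0.01, beside 0.02 for all protein-coding genes tested, with 18 genes above 0 and 16 below. The 17 genes under the filter had 2 to 47 reads over all hearts and at most 0.348 FPKM on average.

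**Figure D1:**
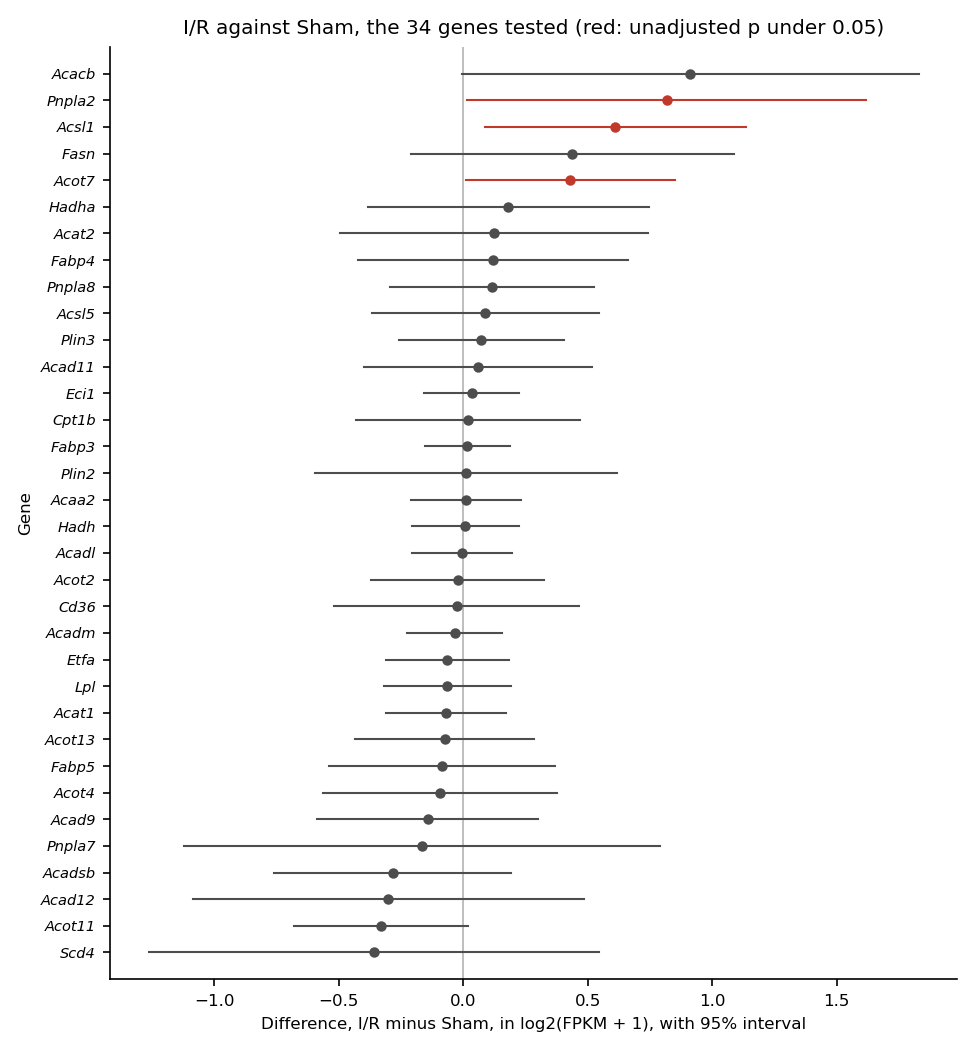
Difference between I/R and Sham hearts (I/R minus Sham, in log2(FPKM + 1)) with its 95% interval from limma, for the 34 genes tested, ordered by size; red marks an unadjusted p under 0.05. The intervals of Fabp3, Acadl, Acadm, Eci1, Hadh and Acaa2 are narrow and lie around 0, whereas those of Acacb, Pnpla2 and Acsl1 reach from near 0 to above 1.

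Fabp3 and Lpl, which supply the cell with fatty acids, had the highest listed levels of the members. Fabp3 (ENSMUSG00000028773, GRCm38 chromosome 4, 130308595 to 130315463), the cytosolic fatty acid carrier of heart muscle, had 9977, 9089.9 and 9539 FPKM in I/R hearts and 8967, 9647 and 9649 FPKM in Sham hearts. These ranges overlapped, and the difference was 0.02 ± 0.07 with a 95% interval of −0.15 to 0.19 (limma, adjusted p = 0.974). Lpl (ENSMUSG00000015568, chromosome 8, 68880491 to 68907448) had 2614, 2157 and 2594 FPKM in I/R hearts and 2812, 2387 and 2490.0 FPKM in Sham hearts. Its ranges overlapped too (−0.06 ± 0.11, interval −0.32 to 0.19). Together the 5 binding proteins made up 52.9% to 53.7% of the summed FPKM of all members in I/R and 51.8% to 54.5% in Sham, nearly all of it Fabp3.

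Other proteins of uptake and binding that are known for high expression in heart or its vessels were listed at low levels. Cd36, the membrane carrier of fatty acids, had 0.659, 0.482 and 0.747 FPKM in I/R hearts and 0.551, 0.485 and 0.971 FPKM in Sham hearts, or 39 reads in I/R and 44 in Sham. Its 1 listed transcript, of 2564 bases, stands beside 12 RefSeq transcripts of the gene. Fabp4, a binding protein of adipocytes and capillary endothelium, had 2.32, 2.38 and 3.71 FPKM in I/R hearts and 2.25, 3.01 and 2.16 FPKM in Sham hearts. Both genes overlapped between the groups, with differences of −0.03 ± 0.21 and 0.12 ± 0.23. Fabp5 was at 0.782 ± 0.126 FPKM in I/R and 0.890 ± 0.168 in Sham. Angptl4, a secreted inhibitor of Lpl, was below the filter with 0.298, 0.221 and 0.460 FPKM in I/R hearts and 0.132, 0.306 and 0.362 FPKM in Sham hearts. Fabp7 had 8 reads in I/R and 1 in Sham, and Fabp1 had 0 in I/R and 2 in Sham.

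Among the enzymes that activate fatty acids, Acsl1, the main long-chain acyl-CoA synthetase of heart, had the smallest unadjusted p of all members. Acsl1 (ENSMUSG00000018796, chromosome 8, 46471037 to 46536051) had 1.18, 1.82 and 1.95 FPKM in I/R hearts and 0.769, 0.494 and 0.922 FPKM in Sham hearts. Every I/R heart was above every Sham heart, on 85 reads in I/R and 40 in Sham. The difference was 0.61 ± 0.22 with an interval of 0.09 to 1.13 (limma, unadjusted p = 0.0283, adjusted p = 0.528). At this level the pseudocount of 1 FPKM shrinks it: it was 1.08 with a pseudocount of 0.1 FPKM and 1.20 by limma voom on the reads. The listed transcript of 2100 bases stands beside 8 RefSeq transcripts. Acsl5, a synthetase of mitochondria and endoplasmic reticulum, was at 6.18 ± 1.04 FPKM in I/R and 5.73 ± 0.789 in Sham (0.09 ± 0.19). The listed rows of Acsl6 had 8 reads in I/R and 7 in Sham, and that of Acsl3 had 7 in I/R and 3 in Sham.

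Thioesterases cleave acyl-CoA back to the free acid. Of 5 tested, 2 had groups that stood apart, in opposite directions, without passing the adjustment. Beside this, 13.9% of protein-coding genes tested had groups apart. Acot7, a cytosolic thioesterase of long-chain acyl-CoA (ENSMUSG00000028937, chromosome 4, 152178134 to 152271855), had 8.49, 9.72 and 10.2 FPKM in I/R hearts and 7.97, 6.62 and 5.79 FPKM in Sham hearts. All I/R hearts were higher, by 0.43 ± 0.18 (limma, unadjusted p = 0.0458, adjusted p = 0.587). Acot11, a thioesterase first described in brown fat (ENSMUSG00000034853, chromosome 4, 106744555 to 106804998), had 15.3, 18.3 and 18.8 FPKM in I/R hearts and 20.3, 21.5 and 24.7 FPKM in Sham hearts. All I/R hearts were lower, on 2167 reads in I/R and 2927 in Sham, and the difference was −0.33 ± 0.15 (limma, unadjusted p = 0.0599, adjusted p = 0.600). Acot13, found on mitochondria, had 160.0, 107 and 129 FPKM in I/R hearts and 133, 144 and 136 FPKM in Sham hearts, so that I/R replicates 1 and 2 lay on either side of all Sham hearts. The difference was −0.07 ± 0.15. Acot2, of the mitochondrial matrix, had 65.2, 53.2 and 65.9 FPKM in I/R hearts and 55.4, 59.4 and 72.9 FPKM in Sham hearts (−0.02 ± 0.15), with overlapping groups. Acot2 has close paralogs beside it on chromosome 12, of which Acot1, Acot3, Acot4 and Acot6 were listed at 0.0565, 0.199, 2.11 and 0.252 FPKM on average, and how reads were split among them is uncertain. Acot12 had 6 reads in I/R and 11 in Sham, and Acot10 had 2 in I/R and 3 in Sham.

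Cpt1b, the muscle form of the carnitine palmitoyltransferase that controls entry into mitochondria, was the 1 listed gene of the carnitine shuttle. It had 31.6, 24.7 and 23.8 FPKM in I/R hearts and 31.9, 26.0 and 21.3 FPKM in Sham hearts, on 408 reads in I/R and 454 in Sham. The ranges overlapped fully and the difference was 0.02 ± 0.19 with an interval of −0.43 to 0.47. Its listed transcript is 629 bases long.

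The acyl-CoA dehydrogenases for long and medium chains differed by less than the spread between hearts. Acadl (long-chain) had 1004, 1002 and 1024 FPKM in I/R hearts and 960.3, 970.2 and 1119 FPKM in Sham hearts. Acadm (medium-chain) had 465, 413 and 434 FPKM in I/R hearts and 448, 433 and 462 FPKM in Sham hearts. Their differences were −0.01 ± 0.08 and −0.03 ± 0.08, and the I/R hearts of Acadl lay within the range of the Sham hearts. The other 4 dehydrogenases were listed at far lower levels. Acadsb, for short branched chains, had 3.54, 2.69 and 2.98 FPKM in I/R hearts and 3.82, 3.35 and 4.74 FPKM in Sham hearts (−0.28 ± 0.20). Acad9, which also helps assemble respiratory complex I, had 4.30, 3.12 and 4.23 FPKM in I/R hearts and 4.50, 4.27 and 4.29 FPKM in Sham hearts (−0.14 ± 0.19). Both overlapped between the groups. Acad11 was at 2.31 ± 0.323 FPKM in I/R and 2.17 ± 0.276 in Sham. Acad12 had 2.03, 0.984 and 1.89 FPKM in I/R hearts and 1.57, 1.57 and 3.93 FPKM in Sham hearts, and its difference of −0.30 ± 0.33 was 0.01 without Sham replicate 3.

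The abundant enzymes of the later steps likewise overlapped between the groups. Acaa2, the mitochondrial thiolase that cleaves off acetyl-CoA, had 1856, 1946 and 1931 FPKM in I/R hearts and 1761, 1808 and 2142 FPKM in Sham hearts. Eci1, the isomerase needed for unsaturated fatty acids, had 919, 940.1 and 888 FPKM in I/R hearts and 855, 864 and 967 FPKM in Sham hearts. Hadh, the 3-hydroxyacyl-CoA dehydrogenase for short and medium chains, had 686, 629 and 669 FPKM in I/R hearts and 609, 644 and 723 FPKM in Sham hearts. For each of these 3 genes the I/R hearts lay inside the range of the Sham hearts, and Sham replicate 3 was the highest heart and Sham replicate 1 the lowest. The differences were 0.01 ± 0.09 for Acaa2, 0.03 ± 0.08 for Eci1 and 0.01 ± 0.09 for Hadh. Acat1, the mitochondrial thiolase of ketone body and isoleucine breakdown, had 176, 144 and 149.6 FPKM in I/R hearts and 165, 164 and 163 FPKM in Sham hearts (−0.07 ± 0.10). Etfa, a subunit of electron transfer flavoprotein, had 103, 88.6 and 95.4 FPKM in I/R hearts and 105, 102 and 92.7 FPKM in Sham hearts (−0.06 ± 0.10).

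The trifunctional protein, which carries out the last steps for long chains, was hardly represented. Hadha, its alpha subunit, had 1.23, 1.73 and 1.08 FPKM in I/R hearts and 1.61, 0.826 and 0.826 FPKM in Sham hearts (0.18 ± 0.24). Hadhb, its beta subunit, had 0 reads in each I/R heart and 1, 4 and 1 in the Sham hearts, too few to compare, and the isomerase gene Eci2 had 1 read in each group. Of the peroxisomal enzymes within the name rule, Acox3 (11 reads in I/R and 8 in Sham) and Acaa1b (6 in I/R and 8 in Sham) were listed, and other peroxisomal enzymes are outside the rule.

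The 12 most abundant members, by listed FPKM, held 98.5% of the reads of all 51. Their ratios of mean FPKM, I/R over Sham, ran from 0.956 to 1.06. The groups did not overlap for 0 of the 12, beside 13.9% of protein-coding genes tested. The 95% intervals of their differences lay between −0.43 and 0.40, so a 2-fold difference was outside the interval of each. The coefficient of variation between hearts of a group ran from 0.360% to 20.1%. Over the 12 genes, I/R replicate 2 was the lowest heart for 7 (median 91.9% of a gene's mean over hearts) and I/R replicate 1 the highest for 5 (median 105%), while Sham replicate 3 was the highest for 5 and Sham replicate 1 the lowest for 5. In the order of listed levels, Acadl and Eci1, and Acat1 and Acot13, had overlapping ranges over hearts, and the other neighbours did not.

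**Figure D2:**
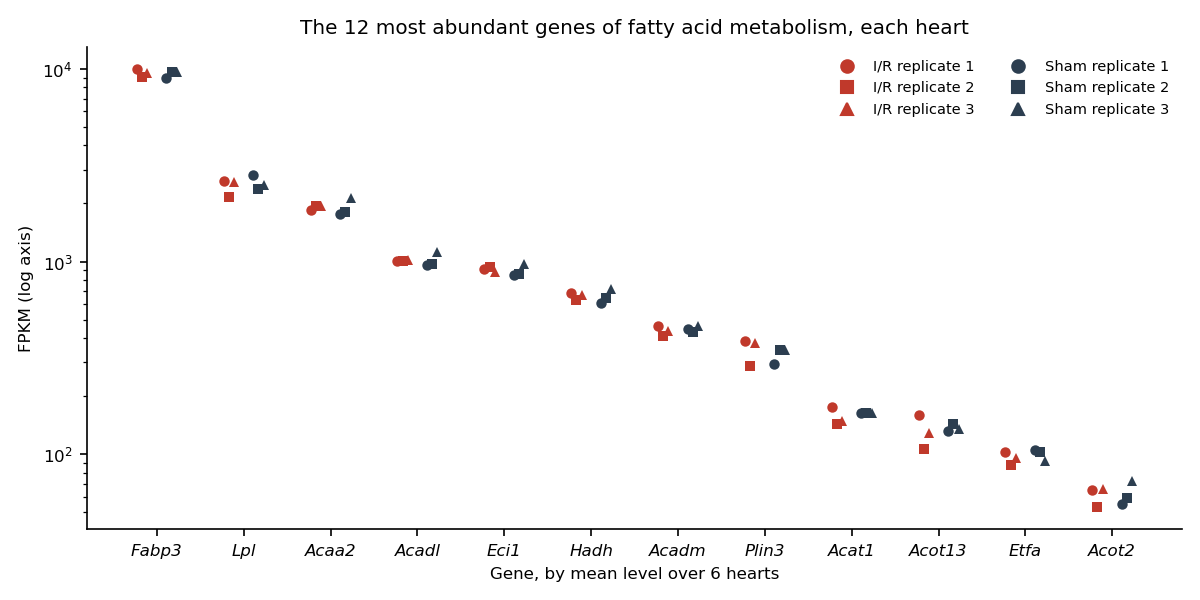
FPKM (log axis) of the 12 most abundant members in each of the 6 hearts, I/R in red and Sham in dark blue, with the marker shape giving the replicate. Each gene's I/R and Sham hearts overlap, from Fabp3 with means of 9535 FPKM in I/R and 9421 FPKM in Sham down to Acot2 with 61.4 FPKM in I/R and 62.6 FPKM in Sham.

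Among the 4 genes of synthesis and desaturation tested, the groups stood apart for Acacb alone, beside 13.9% of protein-coding genes tested. Acacb (ENSMUSG00000042010, chromosome 5, 114146535 to 114250761) encodes the acetyl-CoA carboxylase at the mitochondrial surface whose malonyl-CoA inhibits Cpt1b. It had 16.9, 25.1 and 17.2 FPKM in I/R hearts and 12.4, 4.91 and 15.1 FPKM in Sham hearts. The I/R hearts were all higher, with 330 reads beside 189 in Sham, and the difference was 0.91 ± 0.39 (limma, unadjusted p = 0.0507, adjusted p = 0.591). The low value of Sham replicate 2 weighs on it: without that heart the difference was 0.47. The listed transcript is 676 bases long, and RefSeq has 5 transcripts of the gene.

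Fasn, the fatty acid synthase (ENSMUSG00000025153, chromosome 11, 120805846 to 120824547), had 6.66, 12.8 and 12.5 FPKM in I/R hearts and 6.23, 7.08 and 8.85 FPKM in Sham hearts. I/R replicates 2 and 3 were above all Sham hearts and I/R replicate 1 was among them. The difference was 0.44 ± 0.27, and it was 0.72 without I/R replicate 1, 0.29 without I/R replicate 2 and 0.26 by limma voom on the reads. It rested on a listed transcript of 636 bases (159 reads in I/R, 114 in Sham, 0.46), while the transcript of 10050 bases had 132 reads in I/R and 148 in Sham and differed by −0.01. Scd4, the stearoyl-CoA desaturase known from mouse heart, had 7.16, 22.6 and 17.1 FPKM in I/R hearts and 20.3, 15.8 and 19.6 FPKM in Sham hearts. I/R replicate 1 stood far below the other 5 hearts, and the difference of −0.36 ± 0.38 was 0.09 without it and −0.68 without I/R replicate 2. Acat2, the cytosolic thiolase of sterol synthesis, was at 1.63 ± 0.437 FPKM in I/R and 1.44 ± 0.571 in Sham. Acat3, a close copy beside it on chromosome 17, had 13 reads in I/R and 18 in Sham, and how reads were split between these copies is uncertain.

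Lipid droplets are coated by perilipins and emptied by lipases. Pnpla2 (ENSMUSG00000025509, chromosome 7, 141455198 to 141460743), adipose triglyceride lipase, starts the breakdown of stored triglyceride. It had 20.9, 8.47 and 9.63 FPKM in I/R hearts and 6.81, 5.14 and 7.41 FPKM in Sham hearts. All I/R hearts were higher, on 157 reads in I/R and 86 in Sham, by 0.82 ± 0.34 (limma, unadjusted p = 0.0465, adjusted p = 0.587). I/R replicate 1 stood far above the other I/R hearts, and the difference was 0.44 without it. The listed transcript is 504 bases long. G0s2, which encodes an inhibitor of this lipase and was chosen after its values were seen, had 59.9, 316 and 127 FPKM in I/R hearts and 129, 136 and 105 FPKM in Sham hearts. Its lowest heart was I/R replicate 1 and its highest I/R replicate 2, with a difference between groups of 0.13 ± 0.54.

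The other lipases and coat proteins tested overlapped between groups. Pnpla8, a phospholipase of mitochondria and peroxisomes, was at 15.3 ± 2.34 FPKM in I/R and 14.0 ± 1.93 in Sham (0.12 ± 0.17), and the lysophospholipase gene Pnpla7 had 27 reads in I/R and 38 in Sham. Plin3, a perilipin that moves between cytosol and droplets, had 386, 286 and 376 FPKM in I/R hearts and 295, 346 and 349 FPKM in Sham hearts (0.07 ± 0.14). Plin2, the common droplet coat outside fat cells, had 5.92, 7.19 and 5.25 FPKM in I/R hearts and 6.17, 4.17 and 8.28 FPKM in Sham hearts (0.01 ± 0.26). Plin5, the coat protein of oxidative tissues, had 0 reads in each I/R heart and 1, 1 and 4 in the Sham hearts. Plin1, the coat protein of fat cells, had 7 reads in I/R and 13 in Sham.

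**Figure D3:**
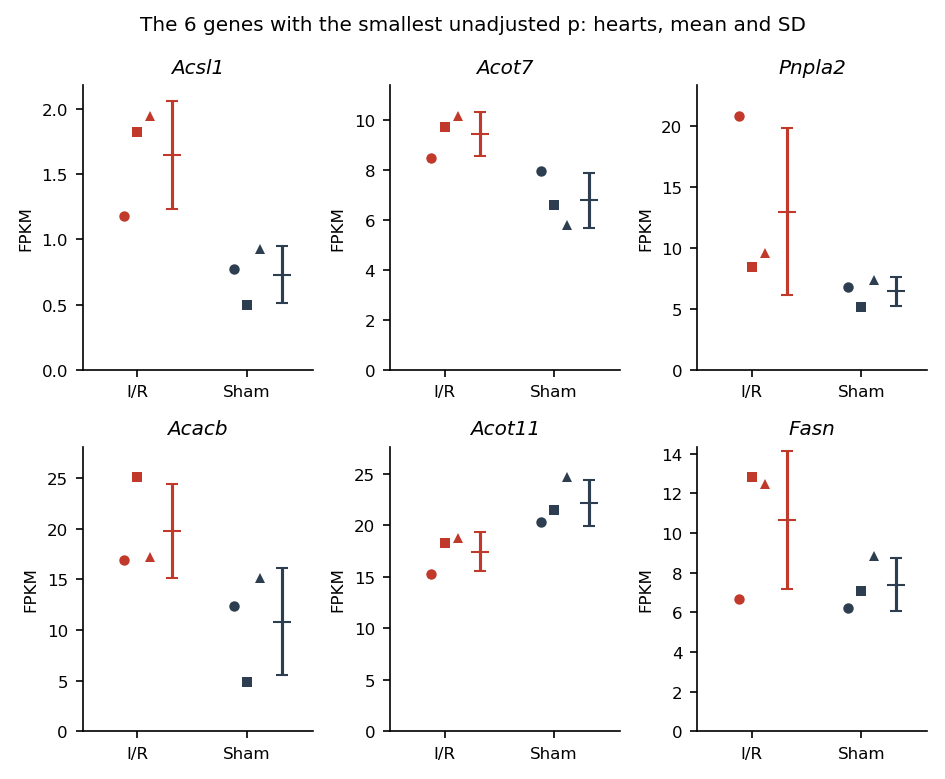
FPKM of the 6 members with the smallest unadjusted p in each heart (marker shape for replicate 1, 2 and 3), with the mean and SD of each group beside the points, I/R left of Sham. The groups do not overlap for Acsl1, Acot7, Pnpla2, Acacb and Acot11, and Pnpla2 in I/R is spread between 8.47 and 20.9 FPKM.

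The groups did not overlap for 5 of the 34 members tested, with Acsl1, Acot7, Pnpla2 and Acacb higher and Acot11 lower in I/R. This is 14.7%, beside 13.9% of protein-coding genes tested (8.83% higher and 5.12% lower). The share is close to the background and is not a result about these genes.

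The level at which a member was listed went with the number of its annotated transcripts. All 13 members with a mean of at least 20 FPKM, a limit chosen after the values were seen, have 1 transcript in RefSeq (GRCm38.p6). They are 13 of the 23 members with 1 RefSeq transcript, and 0 of the 28 members with more reached that level. The medians were 62.0 FPKM over the 23 and 1.59 FPKM over the 28. Other protein-coding genes had the same order with a smaller gap: 20.1% of 2690 with 1 RefSeq transcript reached 20 FPKM and 7.98% of 5813 with more. Cd36 with 12 RefSeq transcripts, Acsl1 with 8 and Hadhb with 4 were among the low members, and Hadha was low with 1. The labels do not say how reads that fall on several transcripts were counted, and the part of this in the pattern was not tested. The listed levels therefore give no ranking of these genes by their whole expression.

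**Figure D4:**
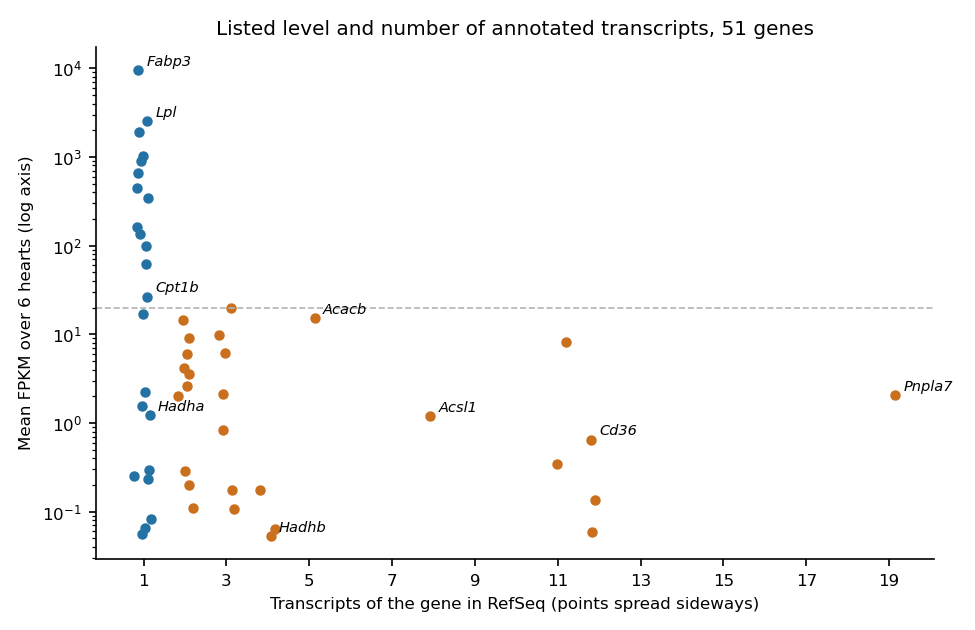
Mean FPKM over the 6 hearts (log axis) of the 51 genes against the number of transcripts RefSeq gives for each, blue for 1 transcript and orange for more, with points spread sideways. The dashed line marks 20 FPKM, and the 13 genes above it all have 1 RefSeq transcript.

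The 51 genes were listed through 71 transcripts, 37 genes with 1 and 14 with 2 or 3. Of the 40 transcripts tested, 2 were higher in I/R and 0 lower at an unadjusted p under 0.05, beside 5.84% of protein-coding transcripts, and the smallest adjusted p was 0.497. Among the genes with several transcripts tested, Acot11 and Acadsb had the same sign in each and the others had opposite ones: besides Fasn these were Pnpla8, whose transcript of 394 bases differed by 0.33 and that of 13507 bases by −0.08, and Plin2, with −0.11, 0.29 and −0.08 over its transcripts of 551, 683 and 730 bases. None of these passed the adjustment.

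LncRNA rows overlapped 13 of the 51 genes in 14 pairs, 5 on the same strand and 9 on the opposite one. The labels do not say whether counting used strand, and without it the reads of such a pair cannot be told apart. In 7 pairs the lncRNA had more reads than the member. At Acsl1 these were 2662 reads of the opposite-strand Gm45244 beside 125 of Acsl1. Gm45244 had 57.9, 129.7 and 99.4 FPKM in I/R hearts and 71.9, 72.3 and 56.6 FPKM in Sham hearts. Its groups overlapped, and its difference of 0.44 ± 0.29 had the same direction as that of Acsl1. For both genes I/R replicate 1 was the lowest I/R heart, but the highest was replicate 2 for Gm45244 and replicate 3 for Acsl1. Among Sham hearts the order was reversed. Acsl1 was lowest in replicate 2 (0.494 FPKM) and highest in replicate 3 (0.922 FPKM), and Gm45244 was highest in replicate 2 and lowest in replicate 3. Whether Acsl1 and Gm45244 shared reads was not tested. FPKM of lncRNAs rest on other totals (2213168 to 2597795 reads in I/R and 2025331 to 2792592 in Sham) and are not on the scale of the protein-coding genes. At Fabp3 the opposite-strand Gm10570 had 524 reads beside 398225.

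Of a wider list of 72 genes of lipid handling, their regulators and ketone use, 42 were listed and 31 tested, with a median difference of −0.03. At an unadjusted p under 0.05 in limma, 0 were higher and 2 lower in I/R (6.45% of the 31). Of protein-coding genes tested, 5.1% passed this limit (3.43% higher and 1.67% lower). The groups did not overlap for 4 of the 31, each lower in I/R. Beside this, 5.12% of protein-coding genes tested had groups apart and lower, and 8.83% apart and higher. The 2 genes at an unadjusted p under 0.05 were Ucp2 and Mgll, and neither passed the adjustment. Ucp2, an uncoupling protein family member of the inner mitochondrial membrane, had 19.9, 18.9 and 28.3 FPKM in I/R hearts and 35.6, 31.6 and 39.5 FPKM in Sham hearts. Every I/R heart was lower, and the difference was −0.66 ± 0.18 (limma, unadjusted p = 0.00892, adjusted p = 0.444). Mgll, monoglyceride lipase, which completes the breakdown that Pnpla2 starts, had 21.4, 18.3 and 16.4 FPKM in I/R hearts and 25.4, 25.3 and 28.4 FPKM in Sham hearts (−0.48 ± 0.14, unadjusted p = 0.0125, adjusted p = 0.468 in limma). Its groups did not overlap, and its direction was opposite to that of Pnpla2.

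Acss3, a short-chain acyl-CoA synthetase, was at 1.997 ± 0.522 FPKM in I/R and 2.998 ± 0.441 FPKM in Sham (−0.43 ± 0.22), and was also lower in every I/R heart. A further 4 genes, taken by rank of p, overlapped between groups, with unadjusted p of 0.0992 to 0.147 in limma. Hilpda, an inhibitor of Pnpla2 induced by hypoxia, differed by 0.58 ± 0.31 and Acss1, the mitochondrial acetyl-CoA synthetase, by −0.18 ± 0.10. The acyltransferase gene Agpat3 differed by 0.42 ± 0.24 and Mcat, of mitochondrial fatty acid synthesis, by −0.25 ± 0.15.

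**Figure D5:**
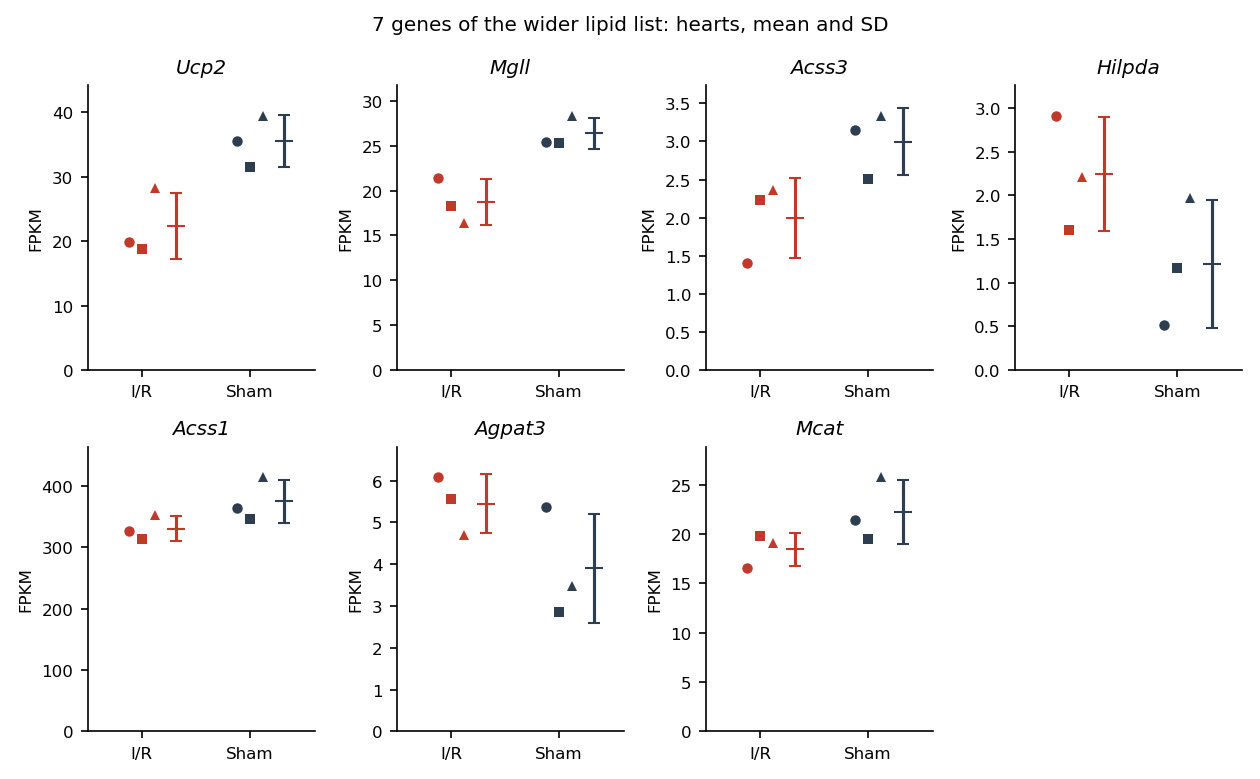
FPKM in each heart (marker shape for replicate 1, 2 and 3) with the mean and SD of each group, I/R left of Sham. The 7 genes were taken from the wider lipid list by rank of unadjusted p, which ran from 0.00892 to 0.147 in limma. Ucp2, Mgll and Acss3 are lower in every I/R heart than in every Sham heart, and the other 4 genes overlap.

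Markers of heart muscle were present, and the listed markers of white fat were near 0. A low listed level does not show that a cell type was scarce. The cardiomyocyte marker Tnni3 was listed at 0.395 to 1.35 FPKM in I/R and 0.881 to 2.12 FPKM in Sham. The fibroblast marker Col1a2 was at 0.132 FPKM or less in every heart. Over the 7 of 8 cardiomyocyte markers listed, summed levels were 329 to 388 FPKM in I/R and 456 to 481 FPKM in Sham, so the groups did not overlap, with 0 higher and 2 (Tnnt2 and Pln) lower at an unadjusted p under 0.05, beside 1.67% of protein-coding genes lower. Of the 7, Ryr2 had a difference above 0 (0.16 ± 0.18). The part of this in the members' values was not tested. Of 8 adipocyte markers 4 were listed and none tested, with sums of 0.490 to 0.858 FPKM in I/R and 0.307 to 1.10 FPKM in Sham, and Lep and Retn were at 0 in all Sham hearts. Of the brown fat markers, Cidea was at 46.0 to 59.3 FPKM in I/R and 53.0 to 60.5 FPKM in Sham, and Ucp1 at 0.159 FPKM or less in every heart. Endothelial markers (4 of 8 listed) summed to 116 to 149 FPKM in I/R and 102 to 125 FPKM in Sham, fibroblast markers (6 of 6) to 394 to 436 FPKM in I/R and 299 to 369 FPKM in Sham, and macrophage markers (3 of 6) to 1038 to 1156 FPKM in I/R and 855 to 1037 FPKM in Sham. At an unadjusted p under 0.05, Tie1 was lower (−0.61 ± 0.21) among the endothelial markers, whose sum was mostly Kdr (0.33 ± 0.15), and Col1a1 was higher (0.51 ± 0.14) among the fibroblast markers. Smooth muscle markers (5 of 6) summed to 795 to 1131 FPKM in I/R and 810.1 to 1064 FPKM in Sham, and blood markers (2 of 5) to 1.09 to 6.20 FPKM in I/R and 1.86 to 6.54 FPKM in Sham. Fibroblast sums, and by a small margin macrophage sums, were higher in every I/R heart. Taken singly, Col1a1 of the fibroblast and C1qb of the macrophage markers had groups apart, and the others overlapped. Of protein-coding genes tested, 8.83% had groups apart and higher in I/R. The part of these cell types in the members' values was not tested.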

How the data were processed

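RNA was measured in 3 I/R and 3 Sham hearts. Per the labels' protocols, a NEBNext poly(A) module and Ultra II library kit were used. The submitters' processing notes list fastp 0.23.0, HTSeq 0.10.0, HISAT2 2.1.0 and bcl2fastq 2.19.1.403, and as builds mm10, GRCm38 and GRCm39, with no roles. The authors deposited FPKM for each transcript. Annotation, use of strand and treatment of shared reads are not stated there.

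Of 21198 rows, 40 repeated another and were dropped, and FPKM were summed per gene. Spans of 50 of 51 members overlapped RefSeq GRCm38.p6 by at least 50%, so coordinates are given as GRCm38. Whole reads behind the FPKM were recovered for 11744 of 11745 protein-coding and 9413 of 9413 lncRNA rows (largest deviation from a whole read 7.6e-05), from the steps between low values, with the scale set by genes of 1 exon. In rows simulated from the recovered reads, with the totals taken as known, all reads were exact for 96.1% of 1500 protein-coding and 96.7% of 1500 lncRNA rows. The simulation did not test the totals or the scale. Transcript lengths given in bases were inferred in the same step, each the shortest that made a row's reads whole in every heart.

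Genes averaging at least 0.5 FPKM (5041 protein-coding, 7073 lncRNA) were fitted as log2(FPKM + 1) with limma 3.58.1 in R 4.3.3, with a variance trend, two-sided, and Benjamini-Hochberg adjustment over all 12114. Tested on simulated data (5 runs of 12113 genes), it called 381 of 500 genes with a 4-fold change, 166 of 500 with a 2-fold change and 38 of 59565 with none. Besides read sampling, every simulated gene had the same spread between hearts, the median of genes with many reads. The protein-coding totals were used for all genes. How many changes would be found among genes with a larger spread was not tested. Python 3.11.15, pandas 2.3.3 and matplotlib 3.10.9 made tables and figures.

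Members and lists were chosen with earlier results of these data known. Values per heart are given for the 12 members with the smallest p, the 12 most abundant and a set of fixed names where listed. Up to 8 genes of the wider lipid list were taken by smallest p, 1 of which is not reported here, and members with 10 reads or fewer are given by reads. Alternatives were 2 other pseudocounts and 2 filters, quantile and class-median scaling, no variance trend, array weights, protein-coding genes alone, the most abundant transcript, limma voom on recovered reads, a replicate block and each heart left out.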

Additional observations from a re-analysis of the deposited data

How the results depend on the processing

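With 3 hearts a group and adjustment over all genes, 0 genes were called in limma with the settings of the report and under each alternative run. Members near 1 FPKM rest on few reads, which limits what could be called. The count of 3 members higher at an unadjusted p under 0.05 ran from 1 (a filter at a mean of 5 FPKM) to 4 (class medians set equal, protein-coding genes alone, or limma voom) with all hearts and from 0 to 3 with 1 heart left out. The count of 0 members lower was 1 with protein-coding genes fitted alone and 1 by limma voom on the reads. The median difference of members ran from −0.02 to 0.07. With the replicate block, 0 genes were called and 2 members were higher at an unadjusted p under 0.05. The smallest adjusted p of all genes in limma was 0.115 with the block and 0.385 without it. Deviations of same-numbered hearts correlated at 0.153, 0.0283 and 0.0287. I/R replicates 1 and 2 each correlated best with the Sham heart of the same number, and I/R replicate 3 with Sham replicate 2 (0.111). Deviations from a mean of 3 hearts are tied to each other, so these correlations cannot decide whether the numbers pair the hearts.

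Of 27 named members tested, 11 kept their sign under every alternative that gave a value. With all hearts, 9 of 317 values had the opposite sign, each of a member near 0, and the cause was not tested. Quantile normalization gave −0.056 for Acaa2, −0.014 for Eci1, −0.055 for Hadh and 0.017 for Cd36. Setting class medians equal gave 0.0080 for Acadl, array weights gave 0.0019 for Acadl and −0.020 for Cpt1b, the most abundant transcript gave −0.11 for Plin2, and limma voom gave −0.0027 for Cpt1b. With 1 heart left out, 26 of 162 values had the opposite sign, in 15 members. The differences of these members then ran as follows: Scd4 −0.68 to 0.089, Fabp3 −0.018 to 0.051, Hadh −0.046 to 0.078, Plin3 −0.0068 to 0.21, Cpt1b −0.12 to 0.16, Lpl −0.11 to 0.026, Acaa2 −0.043 to 0.099, Acadm −0.080 to 0.0063, Acot13 −0.22 to 0.067, Acot2 −0.10 to 0.091, Cd36 −0.10 to 0.099, Plin2 −0.21 to 0.22, Fabp4 −0.043 to 0.23, Acad12 −0.46 to 0.012 and Acadl −0.045 to 0.065. Members that kept their sign but moved by over 1.5 times, beside those given in the report, were Hadha 0.067 to 0.35, Acadsb −0.37 to −0.18, Acad9 −0.21 to −0.024, Acat1 −0.16 to −0.015, Etfa −0.12 to −0.0099 and Eci1 0.0020 to 0.090.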
